A study of Mus musculus with 6 samples.

Results

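Eicosanoid synthesis in the mouse bladder mucosa was followed through 10 genes, namely Alox5, Alox5ap, Lta4h and Ltc4s of the leukotriene branch, Ptgs1, Ptgs2, Ptges, Ptgis and Ptgds of the prostanoid branch, and Hpgd, which inactivates prostaglandins. They were picked by name out of 21527 genes listed in at least 1 of the 6 libraries, and their rows were matched by Ensembl identifier. The values that led to the choice were measured in the same libraries, namely the level of Ltc4s in fibroblasts of healthy and injured bladders, so that this pattern, its log2 differences and their SE are given below as a description, and no test result is drawn from it. All members but Ptgds were listed in all 6 libraries, and Ptgds was not listed in the first healthy and the first acute library.

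The libraries were made from the torn-off mucosal layer of bladders of 8-week-old wild type C57BL/6 mice, digested with collagenase IV and DNase I, and single cells were caught in droplets, where the 3′ end of every mRNA molecule got a barcode of its own, the unique molecular identifier (UMI). Each condition had 2 libraries. Healthy mice received no drug, acute injury followed 1 injection of CPP at 150 mg/kg, and chronic injury followed 4 injections at 75 mg/kg each. Bladders were taken 48 h after the only or final dose, which was day 2 of the acute and day 11 of the chronic protocol. CPP is cyclophosphamide, a chemotherapy drug whose breakdown products in urine damage the bladder lining. Per the study's methods each group of animals held both sexes and the samples were processed and sequenced in batches. The sex and the batch of each library are not given in the sources used here, so that batch and condition cannot be told apart, and p-values measure the spread between 2 libraries a group.

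Eicosanoids are short-lived lipid signals made from arachidonic acid, which phospholipase A2 releases from membranes. In the leukotriene branch 5-lipoxygenase (Alox5), with arachidonate held by its activating protein FLAP (Alox5ap), makes leukotriene A4. Leukotriene A4 hydrolase (Lta4h) turns this into leukotriene B4, which attracts neutrophils, whereas leukotriene C4 synthase (Ltc4s) joins it to glutathione to give the cysteinyl leukotrienes, which contract smooth muscle and make vessels leaky. Cells that lack 5-lipoxygenase can take up leukotriene A4 from neighboring leukocytes. In the prostanoid branch the cyclooxygenases COX-1 (Ptgs1) and COX-2 (Ptgs2) make prostaglandin H2, from which Ptges makes prostaglandin E2, Ptgis prostacyclin and Ptgds prostaglandin D2, and Hpgd (15-hydroxyprostaglandin dehydrogenase) begins their breakdown. In the bladder prostaglandin E2 from the urothelium and the stroma is known to act on sensory nerves and the detrusor muscle.

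Ltc4s lies on mouse chromosome 11 at chr11:50236461-50238616 on the minus strand (GRCm38, GENCODE vM21), inside the span of Gm26542, an antisense RNA on the other strand. The stretch shown here is the far part of its RefSeq promoter window (GRCm38.p6, chr11:50238663-50238782, minus strand, bases -250 to -131 from the RefSeq start), printed because Ltc4s in fibroblasts is the pattern that led to the choice of these genes, with CACCC boxes, searched on both strands, in capitals.
Ltc4s promoter: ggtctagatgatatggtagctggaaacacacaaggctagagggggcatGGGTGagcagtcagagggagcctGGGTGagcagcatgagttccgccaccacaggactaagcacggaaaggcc
The 250 bases before the start held the CACCC box or its reverse complement 4 times, and neither a TATA box (searched as TATAAA) nor the core of a cAMP response element (searched as TGACG) nor a GC box (searched as GGGCGG), which says only that these letters are not in this window. Of 32536 different RefSeq promoters, 52.1% held the letters of the CACCC box on either strand, 12.3% those of the TATA box, 17.9% those of the response element and 33.0% those of the GC box, so that the box found in the Ltc4s window was a common one. Promoter sequences were matched for 8 of the 10 members, without Alox5ap and Ptgis.

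The other leukotriene genes are Alox5 (chr6:116410077-116461178, minus strand), Alox5ap (chr5:149264767-149288153, plus strand, with the short n-R5s180 and the antisense Gm19719 on the other strand) and Lta4h (chr10:93453411-93484875, plus strand). Of the prostanoid genes, Ptgs1 (chr2:36230426-36252272, plus strand) has Gm43621 on the other strand, Ptgs2 (chr1:150100031-150108227, plus strand) and Ptgds (chr2:25466709-25470046, minus strand) overlap no other annotated gene, Ptges (chr2:30889471-30929863, minus strand) holds the pseudogene Gm13400, and Ptgis (chr2:167191805-167240604, minus strand) overlaps 1110018N20Rik and Gm14291 on the other strand. Hpgd (chr8:56294585-56321043, plus strand) overlaps Gm45540 on its own strand. Whether strand was used in counting is not given in the sources used here, so that UMIs of the overlapping pairs cannot be told apart.

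The libraries held 54604109 to 111985678 UMIs over all their barcodes. In each, 5348 to 13864 cells passed the filters, and pairs of libraries shared 0.67% to 2.04% of the barcodes of the smaller one. Cells were clustered and named from marker genes, which gave 4 fibroblast subtypes, 2 myofibroblast subtypes, C1q macrophages, cells with MHC class II genes that are low in C1q, endothelial cells and basal, intermediate and superficial urothelial cells. The MHC class II cells held 19.96 to 314 CPM of the C1q genes C1qa, C1qb and C1qc together, where CPM are the UMIs of a gene per 1000000 UMIs of its class in a library, against 13093 to 22620 CPM in C1q macrophages. For fibroblasts, C1q macrophages, MHC class II cells, endothelial cells and basal and superficial urothelial cells, 6 to 8 of the markers listed were highest in that class, whereas only 3 of 7 myofibroblast markers were highest in myofibroblasts, which share contractile genes with mural and smooth muscle cells. A library held 37 to 137 C1q macrophages. The second acute library gave 2817 of the myofibroblasts and each other library 66 to 864, and the second chronic library gave only 110 fibroblasts, against 454 to 1704. No marker of mast cells or eosinophils was listed in all 6 libraries, and these cells were not sought in single libraries. A 3′ assay does not scale with gene length, so that CPM were not corrected for it. Levels were compared between cells and not between genes.

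Ltc4s was highest in C1q macrophages in every library, at 339.6 and 488 CPM in the healthy, 958 and 509.8 in the acute and 573 and 661 in the chronic libraries. No other class reached the lowest of these values, and the next, endothelial cells, stood at 69.3 ± 43.7 (SD, n = 5) CPM against 588 ± 209.8 (SD, n = 6) in macrophages. A UMI of Ltc4s was seen in 243 of 467 C1q macrophages (52.0%, median 3963 UMIs per cell), against 1.29% of 27546 intermediate urothelial cells at a median of 8589 UMIs. The MHC class II cells low in C1q, which also are antigen-presenting immune cells, held 4.06 to 31.0 CPM, the highest in the first acute library with only 14 such cells. Differences between classes are described and not tested, since the same cells defined the classes.

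**Figure D1:**
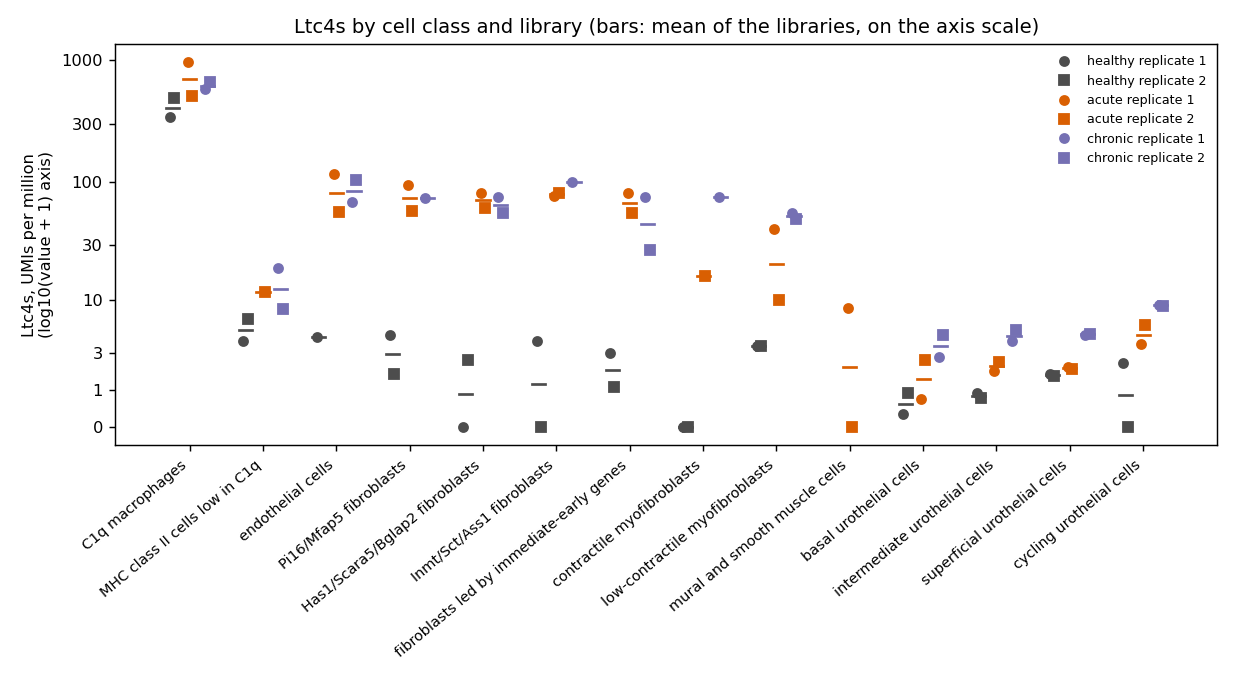
Ltc4s level in CPM of the class (log10(value + 1) axis) by cell class, 1 point for each library, colored by condition. C1q macrophages lie between 339.6 and 958 in all libraries, whereas the fibroblast subtypes reach at most 99.3. In each fibroblast subtype the injured libraries with at least 20 such cells lie above the healthy ones.

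In fibroblasts, the matrix-producing cells of the lamina propria, Ltc4s was close to 0 in health and well measurable after injury. Its level was 2.79 and 1.62 CPM in the healthy, 82.7 and 71.1 in the acute and 76.1 and 51.3 in the chronic libraries. Every injured library lay above both healthy libraries, with no overlap. Healthy and injured libraries also did not overlap, in either direction, for 9 acute and 16 chronic of 37 further pathway genes, described below. The chronic mean was 63.7 ± 17.6 (SD, n = 2) CPM, and 96.2 CPM with cells clustered without integration. On the log2 scale acute exceeded healthy fibroblasts by 5.07 ± 0.45 (SE) and chronic exceeded healthy fibroblasts by 4.78 ± 0.45. Both contrasts share the healthy libraries, in which 11 and 6 UMIs of Ltc4s were counted in fibroblasts, against 136 and 254 in the acute and 219 and 22 in the chronic libraries.

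The same was seen in each fibroblast subtype. Pi16/Mfap5 fibroblasts held 4.69 and 1.74 CPM of Ltc4s in the healthy libraries and 94.6, 57.7 and 74.2 in the acute and the first chronic library. Pi16, a gene known from adventitial fibroblasts, was among the leading genes of this subtype and of Has1/Scara5/Bglap2 fibroblasts. Has1/Scara5/Bglap2 fibroblasts held 0 and 2.53 CPM in the healthy, 81.2 and 61.3 in the acute and 74.99 and 55.5 in the chronic libraries. Inmt/Sct/Ass1 fibroblasts held 4.09 and 0 CPM in health, and between 76.7 and 99.3 in the 3 injured libraries with at least 20 such cells. In fibroblasts led by immediate-early genes Ltc4s went from at most 3.06 CPM in health to 26.9 to 81.3 after injury. The second chronic library had only 5 Pi16/Mfap5 and 11 Inmt/Sct/Ass1 fibroblasts, for which no level is read.

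Because macrophages are rich in Ltc4s, its counts in fibroblasts were set beside those of C1qa, C1qb and C1qc, which encode complement C1q and mark macrophages. In macrophages there were 1.67 to 5.05 UMIs of Ltc4s for every 100 of the C1q genes. In fibroblasts there were 13.3 and 8.82 in the healthy, 618 and 191 in the acute and 201 and 75.9 in the chronic libraries, all above the macrophage range. Urothelial cells also lay above the macrophage range in most libraries, at 11.6 to 27.5 in superficial and 5.11 to 18.2 in intermediate cells, and healthy superficial cells, at 11.6 and 15.8, overlapped healthy fibroblasts. The part of free RNA from other cells in the fibroblast counts was not tested. The C1q genes stood at 21.0 and 18.4 CPM in healthy, 13.4 and 37.2 in acute and 37.9 and 67.6 in chronic fibroblasts. All 10 markers of the macrophage list together reached 57.2 to 191 CPM in fibroblasts, lowest in the first acute library, where Ltc4s was highest, and 24726 to 44732 CPM in macrophages. In endothelial cells the injured libraries with a C1q UMI gave 194 to 650.0 UMIs of Ltc4s per 100, and the first acute library had 21 UMIs of Ltc4s and none of C1q.

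**Figure D2:**
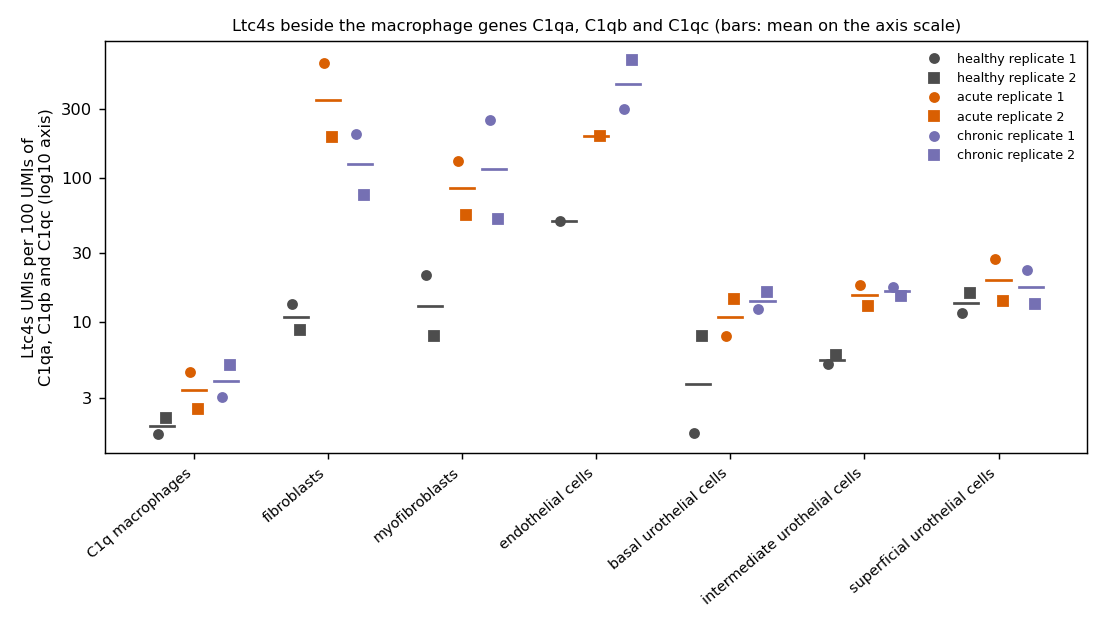
UMIs of Ltc4s per 100 UMIs of C1qa, C1qb and C1qc (log10 axis) by cell class, 1 point for each library, colored by condition. Points at 0 or without a C1q UMI are not drawn. The macrophage libraries lie between 1.67 and 5.05, and the 4 injured fibroblast libraries between 75.9 and 618.

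In myofibroblasts, endothelial, intermediate, superficial and cycling urothelial cells the injured libraries also lay above the healthy ones in Ltc4s. These classes share the same libraries and so are not independent. Of the further pathway genes tested, libraries did not overlap, in either direction, for 4 acute and 6 chronic of 27 in myofibroblasts. In intermediate cells this held for 13 and 16 of 41, and in superficial cells for 15 and 11 of 30. Myofibroblasts, stromal cells below the urothelium, held 3.14 and 2.37 CPM in the healthy, 33.6 and 11.3 in the acute and 62.0 and 46.2 in the chronic libraries, with no overlap between healthy and injured libraries. The 10 macrophage markers summed there to 56.8 and 123 CPM in the healthy, 69.2 and 70.7 in the acute and 112 and 249 in the chronic libraries, and Ltc4s stood at 21.1 and 8.00 UMIs for every 100 of C1q in the healthy and at least 52.0 in every injured library. The log2 difference of Ltc4s from healthy myofibroblasts was 2.66 ± 0.67 in acute and 4.12 ± 0.72 in chronic injury. Only injured libraries reached the minimum of the low-count filter there, 14.8 CPM, so that these differences are a description and no test. Endothelial cells held 4.42 CPM in the first healthy library and 56.1 to 115.5 in the injured libraries, and 0 UMIs in the 15 cells of the second healthy library, too few for a test. In intermediate urothelial cells, the middle layer of the lining, Ltc4s stood at 0.901 and 0.717 CPM in the healthy, 1.90 and 2.43 in the acute and 4.10 and 5.17 in the chronic libraries. This chronic difference was 2.50 ± 0.38 on the log2 scale and did not pass by edgeR (adjusted p = 0.368, Benjamini-Hochberg over 13402 genes). There the C1q genes were at 17.6 and 12.1 CPM in healthy, 10.5 and 18.7 in acute and 23.4 and 33.9 in chronic libraries, so that both were highest in the second chronic library. Superficial cells held 1.72 and 1.60 CPM in the healthy, 2.13 and 1.97 in the acute and 4.64 and 4.82 in the chronic libraries, without overlap, and the chronic log2 difference was 1.43 ± 0.52, again a description, since no healthy library reached the filter minimum of 1.85 CPM. The C1q genes stood at 14.8 and 10.2 CPM in healthy, 7.75 and 14.1 in acute and 20.2 and 36.2 in chronic superficial cells, so that they too were highest in the chronic libraries. Cycling urothelial cells held 2.33 and 0 CPM in the healthy, 3.75 and 5.83 in the acute and 8.92 and 8.81 in the chronic libraries, and the 0 in 53 cells of the second healthy library allows up to 8.78 CPM. In basal cells (0.29 to 4.69 CPM) healthy and acute libraries overlapped, and both chronic libraries lay above both healthy ones. This rests on 1 and 5 UMIs in the healthy and 6 and 11 in the chronic libraries. The C1q genes stood at 16.8 and 11.0 CPM in healthy, 8.93 and 17.4 in acute and 22.4 and 29.0 in chronic basal cells. Whether UMIs of free RNA from other cells contributed to levels this low was not tested.

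In macrophages themselves the log2 difference of Ltc4s was 0.76 ± 0.38 in acute and 0.43 ± 0.38 in chronic injury (adjusted p = 0.999 and 0.933, edgeR). The share of each class in the Ltc4s mRNA differed between libraries. Of all Ltc4s UMIs in a library, C1q macrophages gave 64.8% and 76.7% in health and 19.6% to 37.7% after injury. Fibroblasts gave 6.67% and 3.77% in health, 31.6%, 34.5% and 43.5% in 3 injured libraries, and 6.92% in the second chronic library, which had the fewest fibroblasts. Intermediate urothelial cells gave 25 and 19 UMIs of Ltc4s in health, against 11 and 6 in fibroblasts. They gave 36 and 65 in the acute and 117 and 96 in the chronic libraries, against 136, 254, 219 and 22 in fibroblasts. These counts and shares also depend on how many cells of each class were caught.

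The genes most like Ltc4s over the mean levels of 16 classes and subtypes, among 11685 genes, were Rab3il1 (Pearson r of log2(CPM + 1) 0.955), Il18bp (0.944), Sepp1 (0.933), Apoe (0.925) and Ifih1 (0.925). All 5 were highest in C1q macrophages, as Ltc4s was. The points share libraries and are not independent, so these are descriptions.

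Of the enzymes that feed Ltc4s, Alox5 was hardly seen in the stroma, and Alox5ap was low there. Alox5 was found in C1q macrophages at 34.9 and 20.01 CPM in the healthy, 35.7 and 32.8 in the acute and 34.7 and 11.0 in the chronic libraries. In fibroblasts only 3 UMIs of Alox5 were counted in all 6217 cells, and in myofibroblasts 0. Over the 4268 myofibroblasts a count of 0 allows a share of cells with a UMI of up to 0.0703%, for counting error only. Among the urothelial cells Alox5 was at 0 UMIs in healthy cycling cells and at 3.34 to 7.16 CPM in injured ones. Healthy libraries held only 108 and 53 such cells, in which a count of 0 allows up to 3.499 and 8.78 CPM. The first limit lies near the low end of the injured range and the second above it, and the difference was not tested. Basal urothelial cells held 0.29 and 0 CPM in health, 3.57 and 1.27 in acute and 0 and 3.84 in chronic injury, with log2 differences of 3.99 ± 1.54 and 3.70 ± 1.63 that rest on 24 UMIs. Alox5 passed the filter there, a minimum of 3.36 CPM, only through 1 acute and 1 chronic library, so that no test of it is given. The chronic difference was -2.04 ± 3.84, within 1 SE of 0, without the second chronic library.

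Alox5ap, which encodes FLAP, was the clearest immune gene of the set. It stood at 406 and 544 CPM in the healthy, 708 and 432 in the acute and 683 and 882 in the chronic libraries of macrophages, without overlap with any stromal or urothelial library. MHC class II cells low in C1q held 745 to 1200.2 CPM. Of all Alox5ap UMIs 45.6% came from these MHC class II cells, on average 0.783% of all cells, and 34.1% from C1q macrophages, on average 0.933% of all cells. Fibroblasts held 0 to 3.52 CPM in the 6 libraries, and healthy and injured libraries overlapped, unlike those of Ltc4s. Myofibroblasts held 5.76 and 14.2 CPM in the healthy, 5.93 and 4.15 in the acute and 6.20 and 14.2 in the chronic libraries, from 88 UMIs in all, again with overlap. Contractile myofibroblasts had the highest mean after the immune classes above, 12.5 ± 8.27 (SD, n = 4) CPM and at most 20.5, and low-contractile ones held 6.71 ± 5.45 (SD, n = 6) CPM and at most 15.1. In macrophages acute and chronic injury differed from health by 0.19 ± 0.36 and 0.57 ± 0.36 on the log2 scale (adjusted p = 0.999 and 0.920, edgeR). In intermediate urothelial cells it was 0.686 to 5.28 CPM, highest in the second chronic library, where the macrophage markers summed to 98.4 CPM against 54.5 to 80.9 in the other libraries.

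In single cells Ltc4s and Alox5ap were seen together mainly in macrophages. Among the 467 C1q macrophages, 331 had a UMI of Alox5ap, 40 of Alox5, 186 of both Alox5ap and Ltc4s, and 22 of all 3 genes. Among the 408 fibroblasts with a UMI of Ltc4s, 3 also had Alox5ap and none had all 3 genes. Of all 6217 fibroblasts, 37 (0.595%) had a UMI of Alox5ap. These counts pool the libraries, and whether the genes met in a cell more often than their separate rates give was not tested.

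Lta4h, the enzyme that competes for leukotriene A4, was broadly spread. Fibroblasts held 31.9 and 34.1 CPM in the healthy, 31.0 and 33.32 in the acute and 26.8 and 25.6 in the chronic libraries, and intermediate urothelial cells 20.5 to 25.4 CPM. MHC class II cells had the highest mean, 58.3 ± 26.3 (SD, n = 5) CPM. Chronic myofibroblasts were lower, at 12.4 and 17.8 CPM against 33.2 and 32.0 in health, a log2 difference of -1.09 ± 0.47 that did not pass (adjusted p = 0.792, edgeR) and came from 66 and 85 chronic cells.

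Ptgs1, the constitutive cyclooxygenase, was graded across the urothelium. Basal cells held 147 and 128 CPM in the healthy, 150.1 and 115 in the acute and 118 and 97.3 in the chronic libraries, intermediate cells 21.4 to 39.0 CPM and superficial cells 5.16 to 7.91 CPM, and these 3 ranges did not overlap. Myofibroblasts held 190.2 and 81.9 CPM in the healthy, 166 and 124 in the acute and 155 and 81.8 in the chronic libraries, more in every library than fibroblasts, which held 24.9 to 63.4 CPM. Endothelial cells held 55.3 to 102 CPM. In C1q macrophages Ptgs1 was at 133 and 48.0 CPM in the healthy, 89.2 and 65.6 in the acute and 23.2 and 11.0 in the chronic libraries. Chronic macrophages lay below both healthy libraries, with a log2 difference, chronic minus healthy, of -2.59 ± 0.71 that missed the threshold (adjusted p = 0.692, edgeR). Over the alternatives this difference ranged from -3.23 to -1.57. It passed with no filter on low counts (adjusted p = 0.0249, edgeR), where 0.225% of all genes passed. The first healthy library was the highest of all 6 in macrophages, fibroblasts and myofibroblasts.

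Ptgs2, the inducible cyclooxygenase and itself an immediate-early gene, differed widely between libraries of 1 condition in the stroma, other than between the chronic fibroblast libraries. Myofibroblasts held 167 and 30.9 CPM in the healthy, 300.4 and 26.8 in the acute and 55.8 and 256 in the chronic libraries, and fibroblasts 91.0 and 29.8 CPM in the healthy, 196 and 20.7 in the acute and 59.8 and 55.9 in the chronic libraries. In both classes the first library of the healthy and acute pairs was several times the second, and in myofibroblasts the second chronic library was the higher one. A sum of 17 immediate-early genes, which tissue digestion is known to induce, was 24076 and 20124 CPM in healthy, 27272 and 10990 in acute and 31175 and 23386 in chronic fibroblasts, so that the acute library low in Ptgs2 was also the lowest in these genes. The part of digestion in the Ptgs2 levels was not tested. In basal urothelial cells the libraries were closer, at 29.3 and 26.2 CPM in the healthy, 53.3 and 51.7 in the acute and 19.7 and 39.7 in the chronic libraries. Acute basal cells lay above both healthy libraries by 0.93 ± 0.32 on the log2 scale, a difference that did not pass (adjusted p = 1.00, edgeR). Intermediate cells held 4.77 to 18.2 CPM and superficial cells 0.535 to 6.19 CPM, ranges that overlapped, below the basal range.

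Ptges, the microsomal prostaglandin E synthase, was shared by stroma and basal urothelium. Fibroblasts held 236 and 199 CPM in the healthy, 201 and 212 in the acute and 212 and 95.5 in the chronic libraries, myofibroblasts 112 to 254 CPM and basal cells 80.2 to 159.6 CPM. It stood at 25.4 to 30.8 CPM in intermediate and 5.32 to 10.2 CPM in superficial cells, again without overlap between layers. The log2 differences from healthy basal cells were -0.41 ± 0.30 in acute and -0.23 ± 0.30 in chronic injury. In C1q macrophages it was 0 to 27.6 CPM.

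**Figure D3:**
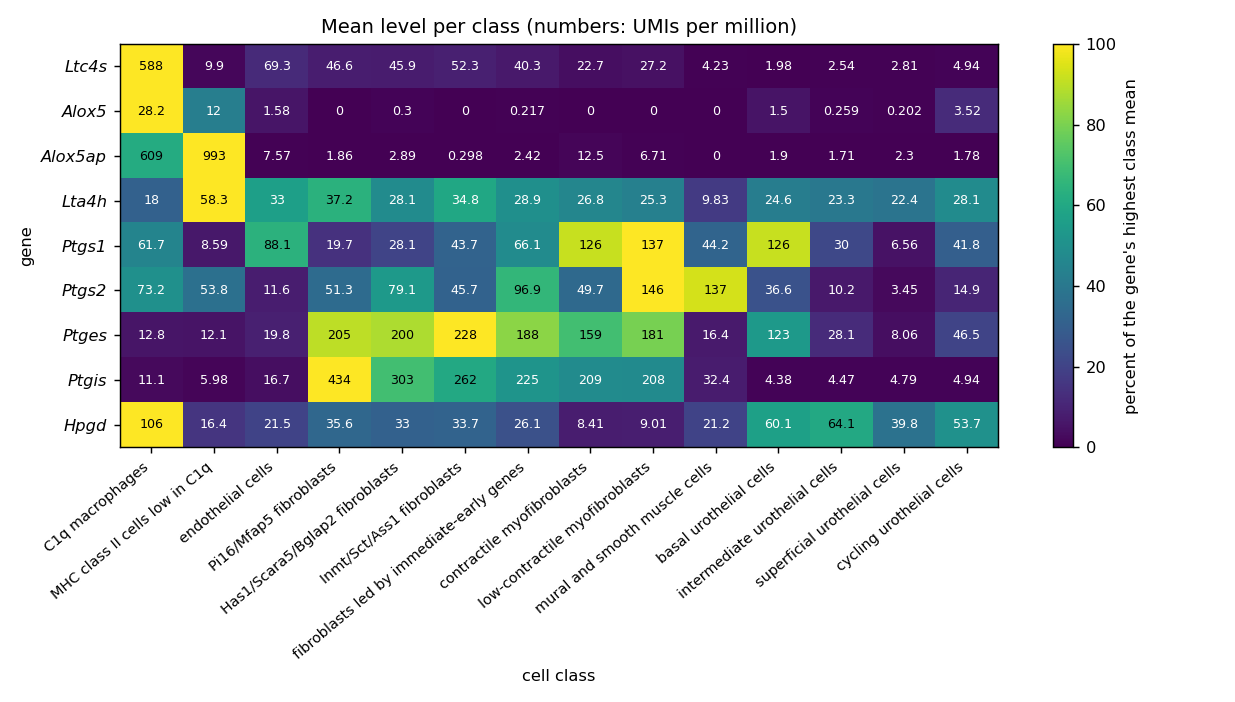
Mean level of the 9 genes listed in all libraries by cell class, in CPM of the class, printed in each field and colored as percent of the gene's highest mean among the classes shown. Classes of under 20 cells in a library were left out of its mean. Alox5ap is highest in cells with MHC class II genes (993 CPM) and C1q macrophages (609 CPM), Ltc4s in C1q macrophages (588 CPM), and Ptgis in fibroblasts and myofibroblasts.

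Ptgis, prostacyclin synthase, was the most stromal member, with 54.1% of its UMIs in fibroblasts and 33.7% in myofibroblasts. Fibroblasts held 389 and 300.1 CPM in the healthy, 382 and 259.6 in the acute and 304 and 107 in the chronic libraries. Pi16/Mfap5 fibroblasts had the highest mean of the subtypes, 434 ± 123 (SD, n = 5) CPM, although its range of 285 to 625 overlapped that of Has1/Scara5/Bglap2 fibroblasts, 111 to 452. The second chronic library was the lowest in fibroblasts for both Ptgis and Ptges. Myofibroblasts held 234 and 304 CPM in the healthy, 231 and 167 in the acute and 155 and 156 in the chronic libraries, and both chronic libraries lay below both healthy ones (log2 difference, chronic minus healthy, -0.81 ± 0.32, adjusted p = 0.792, edgeR). Endothelium is a known source of prostacyclin, and endothelial cells here held 7.90 to 27.5 CPM of Ptgis in the 5 libraries with at least 20 of them and the urothelial layers at most 8.73.

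Ptgds, the lipocalin-type prostaglandin D synthase, could be read in 4 libraries. Of the 155 UMIs counted there, 73 lay in intermediate and 33 in basal urothelial cells and 25 in fibroblasts. All 25 fibroblast and 73 intermediate UMIs came from the second healthy library, and the acute and chronic libraries that list the gene had 0 in these classes. The highest level was in MHC class II cells low in C1q, 74.4 CPM in the second chronic library, from 38 such cells. In these cells the second healthy, second acute and first chronic library had 0 UMIs. A comparison of conditions thus rests on 1 healthy library and was not made.

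Hpgd, which takes prostaglandin E2 out of action, had 69.2% of its UMIs in intermediate urothelial cells, which were 27546 of the 49696 cells kept. Its mean was highest in C1q macrophages, 106 ± 115 (SD, n = 6) CPM. Intermediate cells had a mean of 64.1 ± 28.5 and basal cells of 60.1 ± 27.6 CPM, and the ranges overlapped. Intermediate cells held 107 and 52.7 CPM in the healthy, 90.9 and 54.1 in the acute and 32.5 and 47.4 in the chronic libraries. Basal cells held 105 and 59.1 CPM in the healthy, 67.9 and 67.2 in the acute and 27.4 and 34.6 in the chronic libraries, and superficial cells 91.8 and 26.7 CPM in the healthy, 46.3 and 34.1 in the acute and 16.1 and 23.7 in the chronic libraries. In all 3 layers, which share these libraries and so are not independent, both chronic libraries lay below both healthy libraries. Of the further pathway genes tested, 18 of 33 in basal, 16 of 41 in intermediate and 11 of 30 in superficial cells separated, in either direction. How many of all genes separate in this way was counted in no class. The log2 differences, chronic minus healthy, were -1.40 ± 0.32 in basal, -1.01 ± 0.37 in intermediate and -1.64 ± 0.47 in superficial cells, and did not pass by edgeR (adjusted p = 0.670, 0.958 and 0.862). Without integration of the libraries the superficial difference was 0.14 ± 0.54, within 1 SE of 0, in chronic and 0.74 ± 0.54 in acute injury. The healthy libraries themselves differed, the first being higher in every layer.

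C1q macrophages carried Hpgd at 98.4 and 332 CPM in the healthy, 77.3 and 70.7 in the acute and 46.3 and 11.0 in the chronic libraries, with every injured library below both healthy ones. The log2 difference was -1.55 ± 0.61 in acute and -3.01 ± 0.72 in chronic injury, injured minus healthy, and did not pass by edgeR (adjusted p = 0.999 and 0.597). Over the alternatives the chronic difference ranged from -4.36 ± 0.99 (without the first chronic library) to -2.03 ± 0.67 (without the second healthy library, the highest one), neither of which passed (adjusted p = 0.858 and 0.286, edgeR). The acute difference was -0.55 ± 0.58 without the second healthy library. The chronic adjusted p ranged from 0.000227 to 0.973, and it passed without the first healthy library (log2 difference -3.62 ± 0.59, adjusted p = 0.0109, edgeR), where 0.246% of all genes passed, and with no filter on low counts, where 0.225% passed. The 6 markers that define this class (C1qa, C1qb, C1qc, Apoe, Mrc1 and Csf1r) summed to 41699 and 34701 CPM in chronic macrophages, against 65160 and 57953 in healthy ones. The part of this shift in Hpgd and Ptgs1 was not tested. In fibroblasts Hpgd was 37.0 and 48.7 CPM in the healthy, 29.8 and 23.5 in the acute and 19.5 and 37.3 in the chronic libraries.

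**Figure D4:**
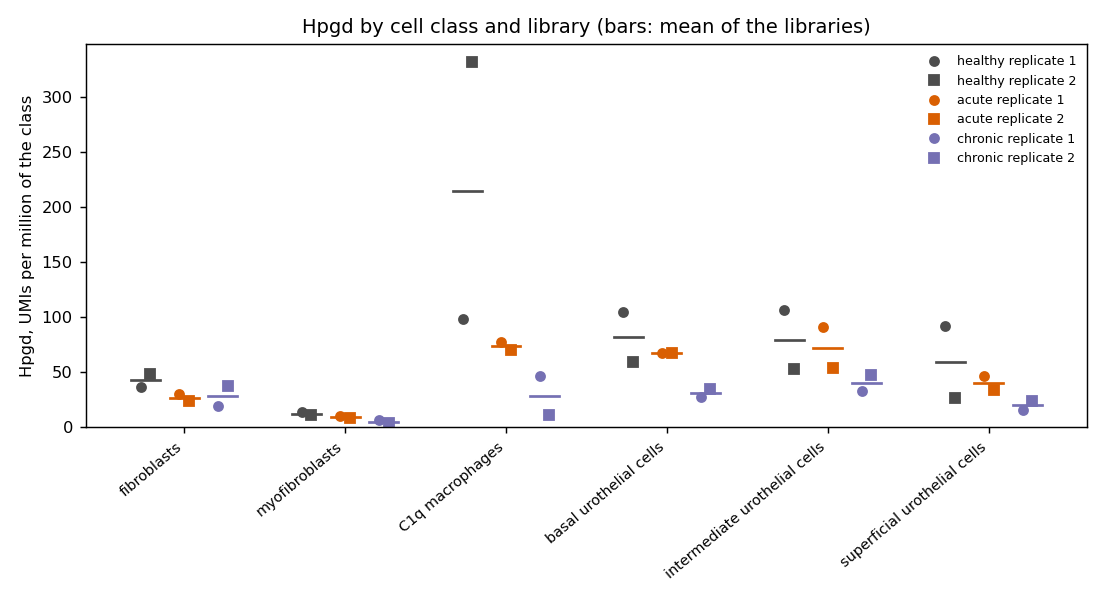
Hpgd level in CPM of the class (linear axis) in 6 classes, 1 point for each library, colored by condition. In C1q macrophages the healthy libraries lie at 98.4 and 332 and the injured ones between 11.0 and 77.3.

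Over all genes, 7 of the 10 members passed the filter on low counts in fibroblasts. Ltc4s had been chosen for this contrast and passed the filter through the injured libraries, so that its edgeR result is no test of it. The share of genes with an adjusted p under 0.05 was 0.00876% of the 11419 genes tested in each contrast, which is Ltc4s alone, and nothing is read from that count. The count of members called was 0 in both contrasts with the replicate number as a block, 0 in the acute contrast without either healthy library or the second acute one, and 0 in the chronic contrast without either healthy library, either acute library or the first chronic one. Of the other 6 members none was called in fibroblasts by edgeR or DESeq2, and 0 of them had an unadjusted p under 0.05, against 287 of all genes in the acute and 718 in the chronic contrast.

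None of 6 members tested in myofibroblasts, 5 in C1q macrophages, 7 in basal, 9 in intermediate and 7 in superficial urothelial cells was called in either contrast by edgeR, where 0% of the 3431 to 13402 genes tested were called. Among these, Ltc4s in myofibroblasts and superficial cells and Alox5 in basal and intermediate cells reached the minimum of the filter in injured libraries alone, so that their results are no test. With these and Ltc4s left out, at an unadjusted p under 0.05 there were 0 acute and 2 chronic of 5 members in myofibroblasts, 1 and 2 of 4 in macrophages, 1 and 1 of 6 in basal, 0 and 2 of 7 in intermediate and 0 and 1 of 6 in superficial cells. Over all genes the same limit was passed by 233 and 483 of 7802 genes in myofibroblasts, 68 and 182 of 3431 in macrophages, 286 and 450 of 10573 in basal, 350 and 676 of 13402 in intermediate and 629 and 607 of 11303 in superficial cells. DESeq2 called Ltc4s in chronic myofibroblasts, where it called 0.0737% of 8146 genes, and in chronic intermediate cells, where it called 0.505% of 12673 genes. Nothing is read from the first for the reason given, nor from the second, since Ltc4s was chosen on values of the same libraries. DESeq2 called no other member outside fibroblasts. The median log2 difference of the members left lay between -1.30 and 0.04 over the 12 comparisons, and that of all genes between -0.03 and 0.01. In simulated data in which genes varied independently, 29.0% of 4-fold changes were found in fibroblasts and 44.5% to 79.0% in the other classes. Beside these, 25 unchanged genes were called in myofibroblasts and 2 to 17 in the other classes, and with no change simulated 5 were called in superficial cells, 1 in intermediate cells and 0 elsewhere.

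**Figure D5:**
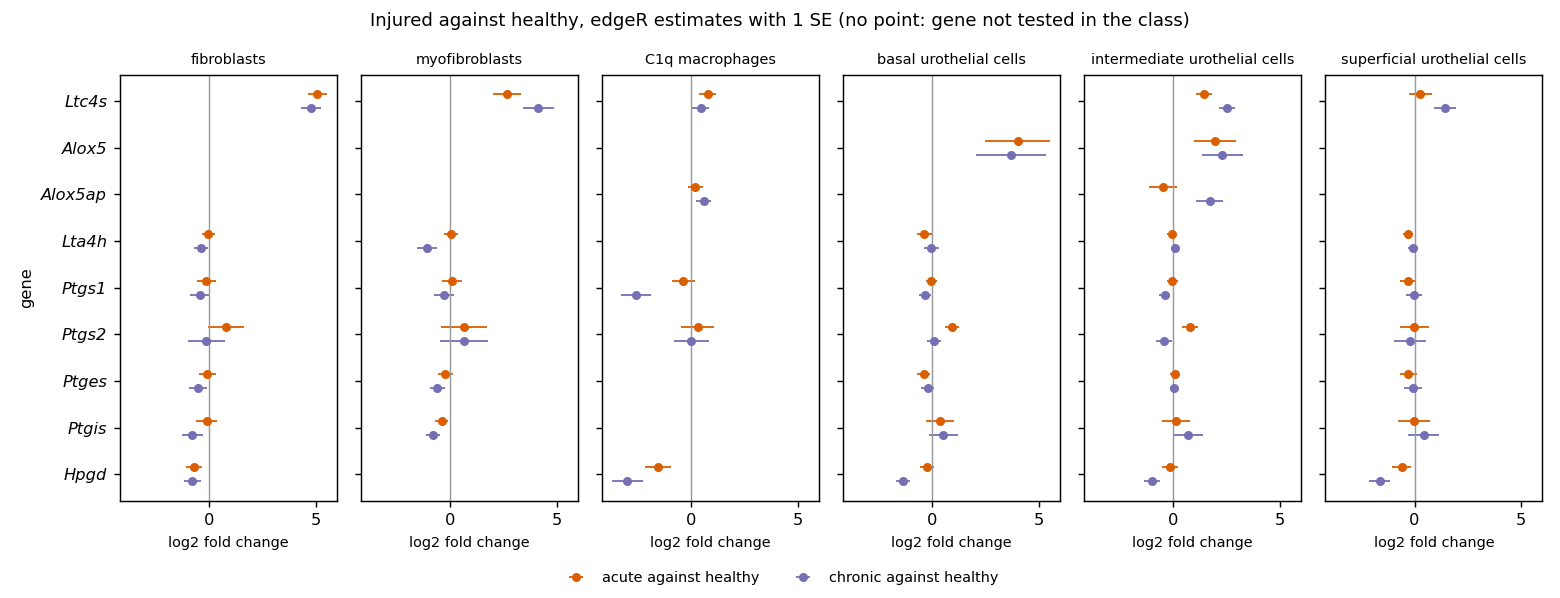
Log2 difference from healthy libraries (edgeR, injured minus healthy) of the members tested, by cell class, with bars of 1 SE, for acute and chronic injury. In fibroblasts Ltc4s lies at 5.07 and 4.78 and the other 6 members between -0.81 and 0.77. Ltc4s in fibroblasts, myofibroblasts and superficial cells and Alox5 in basal and intermediate cells passed the filter on low counts through injured libraries alone and are drawn as a description.

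The remainder of the pathway was read over 70 further genes, of which 48 were listed in all libraries. From 20 to 41 of them passed the filter in a class, and edgeR called 0 in all 12 comparisons, where 0.00876% of genes were called in fibroblasts and 0% elsewhere. Of them, 0 to 4 in a class reached the minimum of the filter in injured libraries alone. At an unadjusted p under 0.05 there were 0 to 6 of the others in a comparison, the most in acute superficial cells with 6 of 30, where 629 of all 11303 genes passed the same limit. DESeq2 called Ephx1 in fibroblasts in both contrasts, where it called 0.196% of all genes tested in the acute and 0.297% in the chronic contrast, and Ephx1 and Alox12 in chronic intermediate cells, where it called 0.505%. These genes are named after their values were seen. Ephx1, a microsomal epoxide hydrolase, was at 29.9 and 24.9 CPM in the healthy, 113 and 125 in the acute and 137 and 86.2 in the chronic libraries of fibroblasts.

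Genes around Ltc4s had homes of their own. Pla2g4a, the cytosolic phospholipase A2 that releases arachidonate, stood at 51.7 and 52.0 CPM in the healthy, 49.3 and 65.8 in the acute and 66.4 and 55.9 in the chronic libraries of fibroblasts and at 19.0 to 38.6 CPM in macrophages. Mgst2 and Mgst3, microsomal glutathione transferases related to Ltc4s, were urothelial, Mgst2 at 225 to 426 and Mgst3 at 748 to 2342 CPM in intermediate cells. Fibroblasts held Mgst2 at 25.6 and 48.7 CPM in the healthy, 61.4 and 59.1 in the acute and 83.4 and 168 in the chronic libraries, a chronic log2 difference of 1.63 ± 0.45 that did not pass (adjusted p = 0.754, edgeR), and Mgst3 at 91.2 and 283 CPM in the healthy, 190.4 and 257 in the acute and 523 and 739 in the chronic libraries. Macrophages held Mgst3 at 79.3 and 280.2 CPM in the healthy, 309 and 295 in the acute and 608 and 220.4 in the chronic libraries. The part of RNA from urothelial cells, where both genes were highest, in these levels was not tested. Abcc1, which exports leukotriene C4, stood at 9.63 to 18.6 CPM in fibroblasts and had its highest mean in superficial urothelial cells (30.3 CPM). Of the enzymes that trim leukotriene C4 further, Dpep1 was in fibroblasts (21.0 to 80.4 CPM), Dpep2 in MHC class II cells (79.3 ± 47.4 (SD, n = 5) CPM) and macrophages (2.52 to 63.7 CPM), Ggt5 at most at 17.4 CPM in macrophages, and Ggt1, listed in 4 libraries, at most at 1.04 CPM in fibroblasts. The receptor Cysltr1 was in macrophages (16.5 to 64.0 CPM) and at most at 0.56 CPM in fibroblasts, and Cysltr2 was listed in only 3 libraries.

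Hpgds, the hematopoietic prostaglandin D synthase, stood at 244 and 188 CPM in the healthy, 167 and 63.1 in the acute and 127 and 49.6 in the chronic libraries of macrophages, and Tbxas1, thromboxane A synthase, at 139.7 and 96.1 CPM in the healthy, 77.3 and 70.7 in the acute and 63.7 and 49.6 in the chronic libraries. Chronic macrophages lay below both healthy libraries in both genes, with log2 differences, chronic minus healthy, of -1.45 ± 0.57 and -1.23 ± 0.44 that did not pass (adjusted p = 0.869 and 0.849, edgeR). The lower sum of the class markers in chronic macrophages, given beside Hpgd, moved with these genes too, and its part was not tested. The prostaglandin transporter Slco2a1 was endothelial (102 to 247 CPM), and the exporter Abcc4 was in basal (55.8 to 122 CPM) and intermediate cells (45.3 to 87.4 CPM). Among the receptors of prostaglandin E2, Ptger4 had its highest mean in MHC class II cells low in C1q (40.7 to 96.5 CPM in the 5 libraries with at least 20 such cells), beside 5.79 to 65.6 CPM in macrophages, 22.7 to 67.5 in basal and 33.8 to 53.0 in intermediate cells, whereas Ptger1 (8.87 to 20.9 CPM) and Ptger2 (2.33 to 18.5 CPM) were seen in fibroblasts, and Ptger2 had its highest mean in low-contractile myofibroblasts (22.8 CPM). Ptger3, Ptgir and Ptgdr were each not listed in at least 1 library and reached at most 4.17 CPM in fibroblasts where listed.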

How the data were processed

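Single-cell RNA sequencing of mouse bladder mucosa was analysed in 6 libraries. The authors ran Cell Ranger on mm10, per the labels and the study's methods, and the deposited tables, 1 for each library, hold unnormalized UMI counts of every gene in every cell. Strand settings and annotation are not given in the sources used here. The tables of the first healthy and first acute library list only genes seen in at least 8 and 6 cells, and the last, broken line of the former was dropped.

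A cell was kept if it had more than 500 genes and less than 10% mitochondrial UMIs. Doublets were scored with the Scrublet method (scanpy 1.11.5), called at 0.8% per 1000 cells and removed, as were clusters with over 33.3% called doublets. Libraries were normalized with sctransform 0.4.2, integrated with Seurat 5.3.0 in R 4.3.3 (3000 features without the eicosanoid genes, 50 components) and clustered with leidenalg 0.10.2 (20 neighbors, resolution 0.8, and 0.5 for macrophages). Classes were named from marker lists, and the naming rules and resolutions were settled after the clusters were seen.

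For each class with 20 or more cells in a library, UMIs were added up over its cells for 14342 genes, those that every table lists, leaving out mitochondrial and ribosomal ones. Injured and healthy libraries were compared with edgeR 4.0.16 (TMM, filterByExpr, quasi-likelihood test over all 3 conditions). The SE of an edgeR log2 difference is its absolute value divided by the square root of the F statistic of that test. It is thus derived from the test and is not a fitted error. The p-values were adjusted by Benjamini-Hochberg across the tested genes, and 0.05 was the threshold. DESeq2 1.42.0 was an alternative. The steps were tested on simulated data with 200 genes changed 4-fold. Libraries of 54604109 to 111985678 UMIs were the replicates, 2 biological replicates a condition per the labels. The study gives the mice per condition as a range, not those in each library. Other alternatives were RLE size factors, no filter on low counts, the replicate number as a block, doublets kept, over 1000 genes and under 5% mitochondrial UMIs, clusters without integration, and leaving out each library. The members, the 70 further pathway genes and the rule for named genes were chosen with earlier results of these data known. That rule took all members, genes next to Ltc4s and to the prostaglandin enzymes, genes called in the main edgeR fits and the 5 most like Ltc4s. Ephx1 and Alox12, which no main fit called, were named outside it. Intervals and the limit behind a count of 0 (3 counts) cover counting error only.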

Additional observations from a re-analysis of the deposited data

How the results depend on the processing

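The count of members past the threshold in fibroblasts is Ltc4s alone, which was chosen on these values, so that its count and direction support nothing. It was between 0 and 1 in both contrasts when each library was left out, with 0 in the acute contrast without healthy replicate 1, healthy replicate 2 or acute replicate 2, and 0 in the chronic contrast without healthy replicate 1, healthy replicate 2, acute replicate 1, acute replicate 2 or chronic replicate 1. Over all alternatives its log2 difference, a description, was 4.74 to 5.50 in acute and 4.38 to 5.19 in chronic injury. A condition left with 1 library was assumed to vary like the others. With the replicate number as a block the count was 0 in both contrasts, at log2 differences of 5.12 ± 0.44 (acute) and 4.75 ± 0.44 (chronic). Deviations of same-numbered healthy and acute libraries correlated at 0.11 to 0.41 in 5 of 6 classes and at -0.11 in macrophages. Those of chronic libraries with either correlated at -0.34 to 0.07, so that the numbers were not taken as pairs. The block changed no other count. Median UMIs per cell were 9138 in healthy replicate 1, 9041 in acute replicate 1 and 8665 in chronic replicate 2. They were 7237 in healthy replicate 2, 5747 in acute replicate 2 and 5530 in chronic replicate 1. A block along this split in depth was not run, and its part in the levels was not tested.

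Elsewhere the count of members was 1 in myofibroblasts without a filter on low counts in both contrasts. With DESeq2 it was 1 in chronic myofibroblasts and 1 in chronic intermediate cells. The gene was Ltc4s each time, from which nothing is read, since it was chosen on values of the same libraries. In myofibroblasts, moreover, only injured libraries reached the minimum of the filter. The count was 2 in chronic macrophages without the filter (Hpgd and Ptgs1). Without healthy replicate 1 the log2 difference of Hpgd there was -3.62. Over all genes 94 and 50 of 14205 were called in myofibroblasts and 29 of 12866 in chronic macrophages without the filter. With DESeq2, 6 of 8146 were called in chronic myofibroblasts and 64 of 12673 in chronic intermediate cells. The count of further pathway genes was 1 in fibroblasts with DESeq2 in both contrasts, 1 in acute fibroblasts without integration (of 13 among all 10940 genes), 2 in chronic intermediate cells with DESeq2, and 1 in chronic macrophages without the filter, with 0 to 1 on leaving out a library (1 without healthy replicate 1). The mean Ltc4s level of chronic fibroblasts was 96.2 CPM without integration, against 63.7 CPM.

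Signs were compared for values reported as more than 1 SE from 0. The sign differed for Alox5 in chronic basal cells without chronic replicate 2 (-2.04, with 5.64 the highest on leaving out a library), for Ptgis in chronic intermediate cells without chronic replicate 1 (-0.33, highest 1.28), for Ptgs2 there without healthy replicate 1 (0.021, lowest -0.85) and for Ptgs1 there without integration (0.072). That of Hpgd in superficial cells differed without integration (0.74 acute, 0.14 chronic) and in the acute contrast without healthy replicate 1 (0.53, lowest -1.19). Of these 7 alternative values, 5 lie within 1 SE of 0 and so have no direction, other than those of Hpgd in the acute contrast. None passed the test in either fit, and the cause was not tested. Basal cells gave no value without integration, since too few libraries held 20 of them.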
